A study of Homo sapiens with 35 samples.

Results

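The sites described here are places in the genome of U-87 MG cells, an established human glioblastoma cell line. There TWEAK treatment gave a p52 peak outside a window around every transcript start, together with RNA polymerase II (RNA Pol II). Overlapping p52 peaks of the 2 TWEAK-treated control libraries were merged on chromosomes 1 to 22 and X, which gave 12172 regions, of which 2910 held a peak of both libraries. A region was called distal when its centre was neither within 1000 bp upstream nor within 100 bp downstream of any GENCODE transcript start, which left 2299 regions. Of these, 290 overlapped an RNA Pol II peak in both TWEAK-treated RNA Pol II libraries by at least 1 bp, 201 did so in 1 library and 1808 in neither. The sites were thus selected on p52 and RNA Pol II peaks of TWEAK-treated control cells, and their values in those 4 libraries are given as a description only.

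TWEAK, a TNF-like cytokine, signals through the receptor Fn14. In non-canonical NF-κB signalling NFKB2 encodes the precursor p100, which is cut to p52, and p52 enters the nucleus with RelB and binds κB motifs in DNA. Distal sites that carry RNA Pol II are often active enhancers, but RNA Pol II is also found along gene bodies and past gene ends, and crosslinking does not separate these.

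All cells were starved for 8 h, and treated cells received TWEAK at 10 ng/ml for 48 h, replenished after 24 h. Each ChIP-seq group had 2 libraries. The p52 antibody was used on untreated control, TWEAK-treated control, and TWEAK-treated ETS1 KD cells made with guide 1 or with guide 2. ETS1, a transcription factor of the ETS family, was profiled in untreated and TWEAK-treated control cells. RNA Pol II was profiled in untreated control, TWEAK-treated control, TWEAK-treated ETS1 KD and TWEAK-treated NFKB2 KD cells. RNA-seq had 3 libraries each of untreated control, TWEAK-treated control, TWEAK-treated ETS1 KD and TWEAK-treated NFKB2 KD cells. KDs were made with CRISPR lentivirus, and the guide used for RNA-seq and RNA Pol II is not given in the sources used here. The paper reports lower expression of both targets by western blot. No KD removed its target's RNA, which does not measure the protein left. NFKB2 was at 235 to 346 CPM (gene counts scaled to library size) in TWEAK-treated control cells and 75.6 to 105 CPM in NFKB2 KD cells. ETS1 was at 71.9 to 87.6 CPM in TWEAK-treated control cells and 28.2 to 37.8 CPM in ETS1 KD cells. The mesenchymal marker VIM was at 9088 CPM or more in every library, whereas the astrocyte marker GFAP had at most 13 counts.

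The peak lists were of unequal length and hold no read counts, so the depth behind a peak is unknown. For p52, the untreated lists had 714 and 452 peaks, against 3579 and 11761 in TWEAK-treated control cells, 1387 and 3897 in ETS1 KD guide 1 cells, and 4252 and 3938 in guide 2 cells. RNA Pol II lists ranged from 11175 peaks, in replicate 2 of the NFKB2 KD, to 44672 in replicate 1 of TWEAK-treated control cells. ETS1 lists held between 2066 and 4372 peaks. A site absent from a list is a site without a called peak, and is not shown to be without the protein.

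After the values were seen, 38 of the 290 sites were set apart because they held a peak in all 4 ETS1 lists and in at least 1 untreated p52 list. They lay far from genes, with a median of 751448 bp to the nearest protein-coding start, and 22 of the 38 were on chromosomes 4, 5 and 21, with EMB nearest to 10 of them, TPTE to 6 and CWH43 to 5. Their p52 peaks were weak, with a median of 2.85 for the lower fold enrichment of the TWEAK-treated replicates. The other 252 sites are described below, with the value over all 290 given in some places. Values printed for the 252 alone may differ over all 290. Since the ETS1 and untreated p52 lists served to set the 38 apart, shares of the 252 in those lists are lowered by that step itself.

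The strongest p52 sites carried κB motifs at their summits. Of the 252 sites, ordered by the lower of the p52 fold enrichments in TWEAK-treated control cells, the 12 strongest are printed because each held a κB match within 100 bp of its summit, and 10 of these matches were centred within 2 bp of it. The hg38 plus strand is given, with the κB match in capitals.
PLA2G6 intron, chr22:38180217-38180276: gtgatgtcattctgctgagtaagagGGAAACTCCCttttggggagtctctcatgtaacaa
Upstream of PLA2G6, chr22:38218744-38218803: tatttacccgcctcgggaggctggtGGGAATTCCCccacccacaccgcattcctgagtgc
Near DLX2, chr2:172095568-172095627: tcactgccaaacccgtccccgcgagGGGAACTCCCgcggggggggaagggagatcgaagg
Far upstream of HMGA2, chr12:65603688-65603747: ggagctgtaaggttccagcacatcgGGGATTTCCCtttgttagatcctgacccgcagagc
ARFRP1 exon, chr20:63699001-63699030: caactcacagGGGATTTCCCgagaggggac
Far upstream of ZNF217, chr20:53774836-53774895: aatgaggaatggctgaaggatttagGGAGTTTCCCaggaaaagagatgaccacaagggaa
Near C11orf68, chr11:65912939-65912998: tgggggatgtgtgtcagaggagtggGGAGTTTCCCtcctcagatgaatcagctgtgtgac
Upstream of LIF, chr22:30250928-30250987: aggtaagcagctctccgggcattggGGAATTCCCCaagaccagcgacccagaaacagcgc
POT1-AS1 intron, chr7:125356134-125356193: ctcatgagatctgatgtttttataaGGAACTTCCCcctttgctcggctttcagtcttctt
Upstream of PPIF, chr10:79331883-79331942: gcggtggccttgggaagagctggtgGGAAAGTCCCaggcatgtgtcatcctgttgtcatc
ASB2 intron, chr14:93959494-93959553: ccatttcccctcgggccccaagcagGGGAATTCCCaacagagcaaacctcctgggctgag
Far from TSHZ3, chr19:31127356-31127415: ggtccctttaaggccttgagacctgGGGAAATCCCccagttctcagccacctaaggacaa
The match was off-centre at the POT1-AS1 site, by 74 bp, and at the site upstream of PPIF, by 8 bp. Both the site upstream of PLA2G6 and that in the ASB2 intron held a match that reads the same on either strand. Another pair of sites, chosen after their values were seen, is printed because it lacked a κB match within 100 bp of the summit, held an AP-1 consensus (capitals) and was nearest to genes raised by TWEAK.
TRAF1 intron, chr9:120926220-120926248: aacgtcacagcTGAGTCAcagcagggatg
CD82 intron, chr11:44569303-44569359: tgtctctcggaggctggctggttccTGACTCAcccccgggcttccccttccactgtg
TRAF1 and CD82 are described with their RNA below. TRAF1 is an adaptor of TNF receptors and CD82 a tetraspanin of the cell surface.

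Around the 252 summits, the κB consensus was found within 100 bp either side in 65.1% of sites (95% exact interval 58.8 to 71.0), against 5.16% and 8.33% in windows of the same length 1000 bp to the left and to the right. It lay close to the summit, at a median of 5.5 bp among the 170 sites with a match within 200 bp. The κB motif was less frequent than at distal p52 sites without RNA Pol II, of which 80.1% had a match, a difference of -15.0 points (95% Newcombe interval -21.4 to -9.11). It was also less frequent than at p52 sites of promoters, of which 75.2% had a match. Over all 290 sites the share was 56.9%, against 78.7% of the 1808 distal sites without RNA Pol II. These intervals treat sites as independent and cover counting error only.

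The AP-1 consensus, TGACTCA read on both strands, is bound by FOS and JUN dimers. It was found at 17.9% of the 252 sites, against 3.17% and 3.97% in the flanking windows. Distal p52 sites without RNA Pol II had 16.6%, and promoter sites 9.27%, which was lower by 8.59 points (interval 3.63 to 14.2). The RUNX core TGTGGT was found at 16.7% of sites and in 14.3% and 13.1% of their flanks, and the ETS core AGGAAG at 26.6% of sites and in 22.2% and 25% of flanks, so both were close to their flanks. No match says only that these letters are not in the window.

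AP-1 and RUNX motifs were more frequent at sites without a κB match. The 88 sites without a κB match had the AP-1 consensus in 28.4% and the RUNX core in 29.5%, whereas the 164 sites with a κB match had them in 12.2% and 9.76%. The differences were 16.2 points (interval 5.98 to 27.2) for AP-1 and 19.8 points (9.65 to 30.7) for RUNX. ETS cores were at 28.4% and 25.6% (interval of the difference -8.23 to 14.6 points), and the TEAD motif was at 11.4% and 15.2% (-12.0 to 5.66 points). At distal p52 sites without RNA Pol II, the AP-1 consensus showed a difference of the same sign, 24.6% against 14.6%, but the RUNX core was at 12.7% and 12.2%. Sites without a κB match had weaker p52 peaks, with a median lower fold enrichment of 6.52 against 8.89, and the part of peak strength in these differences was not tested.

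**Figure D1:**
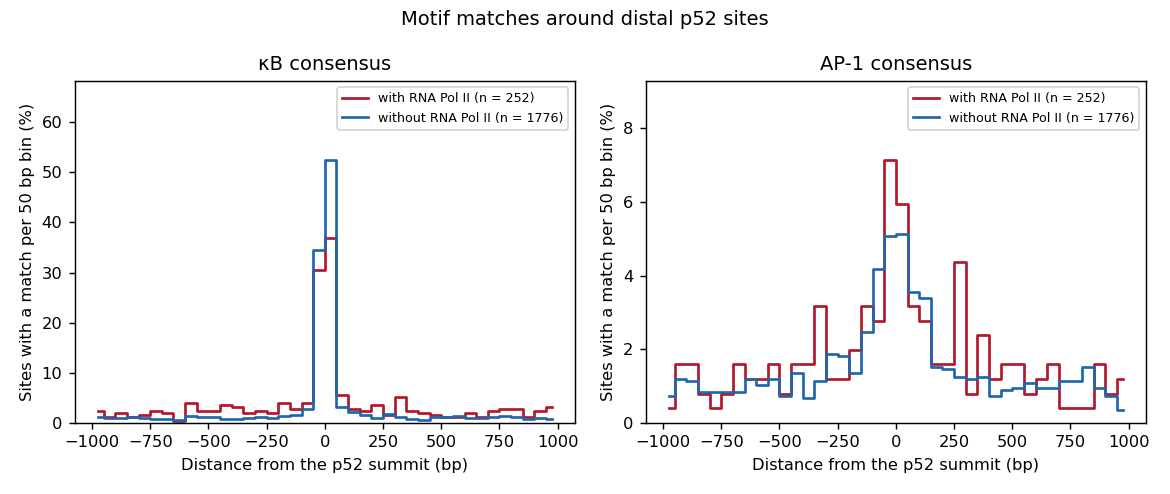
Share of distal p52 sites with a match (vertical axis, % per 50 bp bin) by distance from the p52 summit (horizontal axis, bp), for the κB consensus on the left and the AP-1 consensus on the right. In the bins on each side of the summit, 30.6% and 36.9% of the 252 sites with RNA Pol II (red) held a κB match and 7.14% and 5.95% an AP-1 match; blue lines show the 1776 sites without RNA Pol II.

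The sites lay closer to genes than other distal p52 sites did. The median distance from the site centre to the nearest protein-coding start was 7948 bp for the 252 sites and 10052.5 bp over all 290. It was 26461 bp for distal p52 sites without RNA Pol II. Introns held 57.5% of the sites and exons 13.5%, whereas exons held 4.96% of the distal sites without RNA Pol II, a difference of 8.54 points (interval 4.70 to 13.4). The rest, 29.0%, were between genes. The window around the summit had a median GC content of 54% against 48%. The window that defines a distal site has an edge 100 bp after a start, and sites just inside it were close to promoters, such as that 101 bp after a start of PKM (p52 fold enrichment 4.14 and 7.75 in the TWEAK-treated replicates) and that 111 bp after a start of NOCT (10.3 and 20.4). Just outside were the site 99 bp after a start of C17orf49 (4.73 and 4.83) and that 98 bp after a start of MED15 (3.79 and 8.57).

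Peak strengths of p52 and RNA Pol II at the sites are a description only. They come from the TWEAK-treated control libraries whose peaks chose the sites. Places lacking a called peak in any of these libraries were left out, so how the strengths relate beyond the sites was not tested. The median p52 fold enrichment was 7.82 in replicate 1 and 17.5 in replicate 2 of TWEAK-treated control cells, and that of RNA Pol II was 10.1 and 7.17. Across the 252 sites, which share libraries, Spearman's rho was 0.899 between the p52 replicates and 0.732 between the RNA Pol II replicates, but -0.112 and -0.152 between the lower p52 value and either RNA Pol II replicate. The RNA Pol II summit was within 200 bp of the p52 summit at 111 sites (44.05%) in replicate 1 and 122 sites (48.4%) in replicate 2. At the others the nearest summit of an overlapping RNA Pol II peak was farther away.

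The strongest p52 site lay in an intron of PLA2G6, a phospholipase gene, only 220 bp after a start, at chr22:38179848-38180520. It had p52 fold enrichments of 76.2 and 130 with TWEAK in control cells. After ETS1 KD they were 83.1 and 180 with guide 1 and 146 and 141 with guide 2, and no untreated list held the site. Its RNA Pol II peaks were weak, at 6.74 and 3.803, and ETS1 KD lists held none. The site upstream of PLA2G6, at chr22:38217979-38219094, had p52 at 74.1 and 137 and was the only one of the 252 in an untreated p52 list, at 5.66 in replicate 1. RNA Pol II was at 16.8 and 8.99 there in untreated cells and at 89.4 and 13.2 in TWEAK-treated control cells.

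The sites next in strength lay near genes of diverse function. The site near DLX2, a homeobox gene, had p52 at 47.7 and 113. The site far upstream of HMGA2, a chromatin protein gene, had p52 at 39.5 and 100, with RNA Pol II at 15.1 and 17.2 in untreated cells and 16.5 and 13.4 after TWEAK. Upstream of LIF, an IL-6 family cytokine gene, p52 was at 30.3 and 68.0 after TWEAK and at 31.3, 65.1, 54.4 and 53.0 in the 4 ETS1 KD libraries. Upstream of PPIF, a mitochondrial cyclophilin gene, p52 was at 28.4 and 59.1. Of these 12 sites, all had p52 in all 4 ETS1 KD lists and none had an ETS1 peak.

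Untreated p52 lists held 13.1% and 12.8% of all 290 sites. All of these but 1 in replicate 1, at 0.397% of the 252, were among the 38 sites set apart, and since untreated p52 lists served to set them apart, the share of the 252 is fixed by that step. In ETS1 KD cells, p52 was at 42.5% and 81.0% of the 252 sites with guide 1 and at 80.6% and 78.6% with guide 2. Every ETS1 KD library was above both untreated libraries, whose p52 lists were also shorter (714 and 452 peaks). With p52 lists cut to the length of the shortest, both untreated lists held 12.1% of all 290 sites. Both guide 1 lists then held 11.7% and both guide 2 lists 13.45%. The part of list length in the contrast of full lists was not tested. Over all 290 sites, the mean shares of 69.4% in the 4 ETS1 KD libraries and 12.9% in the 2 untreated libraries gave p = 0.1333 in a two-sided exact permutation test (0.533 after Benjamini-Hochberg adjustment over 4 such tests), the smallest p that 4 against 2 libraries allow. Since the sites were chosen for peaks in TWEAK-treated control cells, a share below 100% in ETS1 KD cells is not a measured loss.

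**Figure D2:**
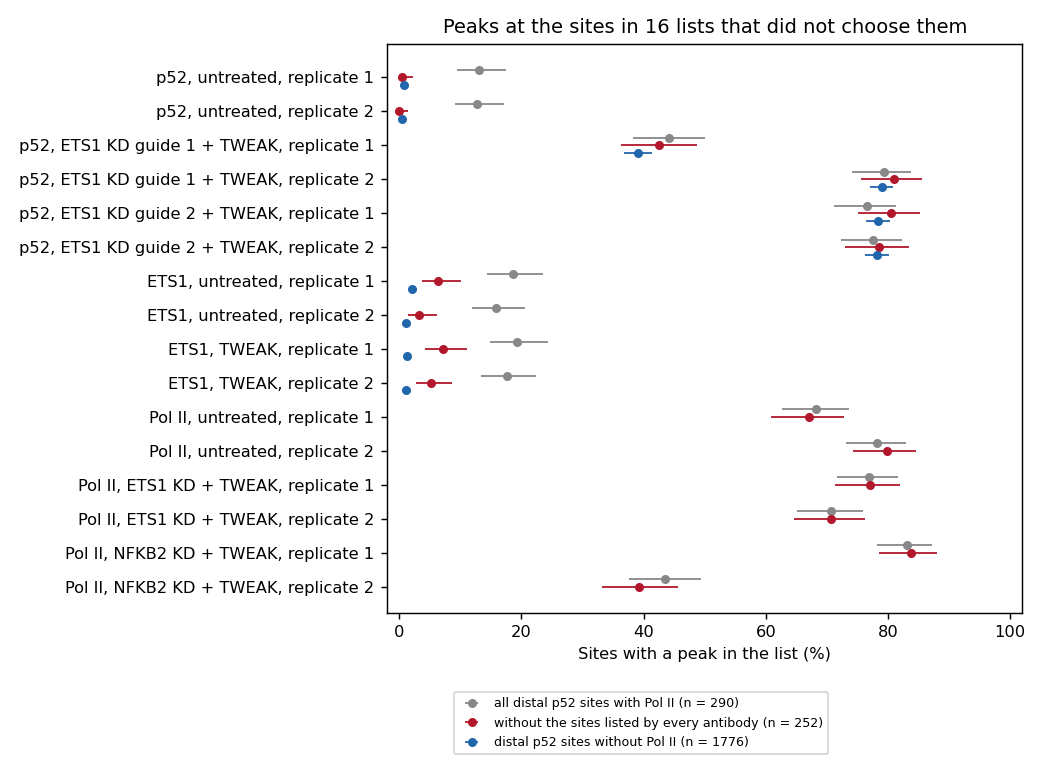
Share of sites with a peak (horizontal axis, %) in each of the 16 lists that did not choose the sites, with bars for the 95% exact interval, for all 290 sites (grey), the 252 without those listed by every antibody (red) and the 1776 distal p52 sites without RNA Pol II (blue, not drawn for RNA Pol II, where their choice fixes the share). p52 in ETS1 KD cells sits at 42.5 to 81.0% of the 252 sites. ETS1 sits at 3.17 to 7.14% of them, shares lowered by setting the other sites apart on ETS1 lists.

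Without regard to p52 strength, p52 in ETS1 KD cells showed no detected difference between distal sites with and without RNA Pol II. The shares at distal p52 sites without RNA Pol II were 39.1% and 79.0% with guide 1 and 78.4% and 78.3% with guide 2. The differences from the 252 sites were 3.33 points (interval -3.04 to 9.89), 1.95 (-3.65 to 6.74), 2.12 (-3.52 to 6.95) and 0.306 (-5.48 to 5.33). Sites with a peak in all 4 ETS1 KD lists numbered 106, and those in none 24. The 2 sets were not matched on p52 strength, with median lower fold enrichments of 7.71 with RNA Pol II and 8.40 without. From 5 to 10 and from 10 to 20, every ETS1 KD library held a larger share with RNA Pol II. The widest gap was in guide 1 replicate 1 from 10 to 20, at 84.6% (interval 73.5 to 92.4) against 67.4% (63.2 to 71.3). Under 5 the libraries went both ways, and differences within bands were not tested.

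Strength of the p52 peak in control cells ordered the sites. Of the 22 sites whose lower fold enrichment was 20 or more, all 4 ETS1 KD lists held 100% (lower limit 84.6%). Of the 65 sites from 10 to 20, the lists held 84.6%, 100%, 98.5% and 100%. Of the 126 sites from 5 to 10 they held 22.2%, 77.0%, 81.0% and 74.6%, and of the 39 sites under 5 they held 5.13%, 51.3%, 38.5% and 43.6%. The guide 1 replicate 1 library, with the shortest of these lists, was the low one in the bands under 20. κB matches moved with the same quantity: p52 was in the guide 1 lists at 50.6% and 86.0% of sites with a κB match and 27.3% and 71.6% of those without, and in the guide 2 lists at 87.8% and 88.4% against 67.0% and 60.2%.

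**Figure D3:**
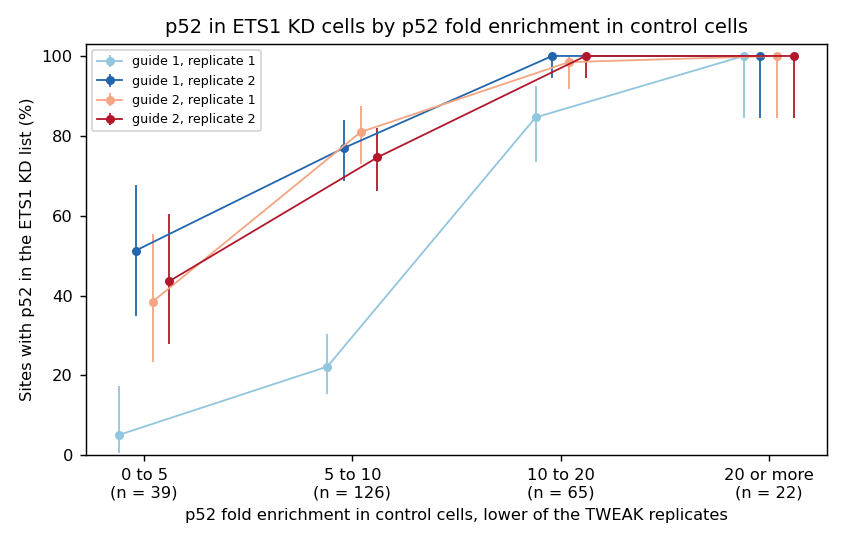
Share of the 252 sites with a p52 peak in each ETS1 KD library (vertical axis, %, with 95% exact intervals) by the p52 fold enrichment in TWEAK-treated control cells (horizontal axis, 4 bands of the lower replicate). All lines reach 100% at 20 or more, and at 5 to 10 guide 1 replicate 1 stands at 22.2% while the other libraries stand at 74.6 to 81.0%.

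ETS1 peaks were few at the 252 sites, in part because the 38 sites set apart were in all 4 ETS1 lists. ETS1 was at 6.35% and 3.17% of the 252 sites in untreated and at 7.14% and 5.16% in TWEAK-treated cells. Over all 290 sites, 45 (15.5%) were in all 4 ETS1 lists and 231 (79.7%) in none. Over all 290 sites the mean share was 1.21 points higher with TWEAK (p = 0.6667, two-sided exact permutation test, for which 0.3333 is the smallest p possible). Even so, ETS1 was more frequent than at distal p52 sites without RNA Pol II, where TWEAK lists held 1.24% and 1.13%. The differences were 5.90 points (interval 3.25 to 9.79) and 4.03 points (1.83 to 7.52). Both sets were first filtered on the ETS1 lists, so these intervals describe only the sites left. Promoter p52 sites had 8.61% and 6.29%, and the interval of the first difference, -5.06 to 2.88 points, included 0. Over all 290 sites, ETS1 was in both TWEAK lists at 16.6%, against 2.38% of the 1808 sites without RNA Pol II, and most of that excess lay in the 38 sites set apart.

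The 21 sites with an ETS1 peak were not the strong p52 sites. Only 7 were in all 4 ETS1 lists, near ANHX, CHL1, CROCC, GRAP, KMT2C and, for a pair of sites, CCDC200. By position, 7 of the 21 lay within 500 bp of the start of a small nuclear or nucleolar RNA gene, including those near CROCC, GRAP and CCDC200. Some others lay close to a gene start, as did that 111 bp after a start of NOCT. A site 319 bp from a start of NRG1, which encodes the growth factor neuregulin, was in both untreated ETS1 lists at 6.79 and 5.42 and in 1 TWEAK list at 5.79.

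RNA Pol II was already listed at most sites in untreated cells. Untreated lists held 67.1% and 79.8% of the 252 sites, and 149 sites (59.1%) were in both, 72 in 1 and 31 (12.3%) in neither. After TWEAK, ETS1 KD lists held 77.0% and 70.6%, and NFKB2 KD lists held 83.7% and 39.3%. The NFKB2 KD replicates thus stood on either side of the untreated ones, and the lower of them had the shortest RNA Pol II list. The ETS1 KD and NFKB2 KD means differed from the untreated mean by 0.397 and -11.9 points, each with p = 1.00 in a two-sided exact permutation test whose smallest p is 0.3333. Both KD comparisons used the same untreated libraries. In all 8 RNA Pol II lists there were 80 sites.

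Sites with RNA Pol II listed after TWEAK and not before were a minority. Of the 31 sites absent from both untreated lists, the ETS1 KD lists both held 7 and neither held 13, and the NFKB2 KD lists both held 1 and neither held 15. A site 454591 bp upstream of PTGER4, the prostaglandin E2 receptor EP4 gene, at chr5:40225094-40225554, was the strongest example. Its RNA Pol II fold enrichment was 51.4 and 28.6 in TWEAK-treated control cells and 25.003 and 20.5 in ETS1 KD cells, and neither the untreated nor the NFKB2 KD lists held it. Its p52 was at 11.5 and 31.9 in control cells and at 8.37, 15.9, 10.7 and 17.4 in ETS1 KD cells. A site near RASA3 had the same pattern of presence, and 0 sites had the reverse pattern of NFKB2 KD with no ETS1 KD. The site in a CD82 intron was also without untreated RNA Pol II, at 6.08 and 4.62 after TWEAK, and at 5.54 in 1 NFKB2 KD list. Another 6 sites, near BTBD16, HDGF, ITGB6, MARCKS, SLC4A7 and ZNF436, were in none of the 6 untreated and KD lists.

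Distal RNA Pol II regions with p52 were compared with those without in the lists of other conditions. Merging the RNA Pol II peaks of both TWEAK-treated libraries gave 203 distal regions at these p52 sites and 6363 without p52. The regions with p52 were listed more often in all 6 libraries, by 8.08 points in untreated replicate 2 to 22.98 points in NFKB2 KD replicate 2. Within bands of RNA Pol II fold enrichment, all but 2 of the intervals included 0. The exceptions were NFKB2 KD replicate 2 under a fold enrichment of 5, with 20% at p52 against 10.2%, and NFKB2 KD replicate 1 from 5 to 8, with 97.3% against 86.3%. The part of peak strength in the overall differences was not tested.

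The strongest RNA Pol II marked another kind of site. In 22 of the 252 sites the RNA Pol II fold enrichment was 50 or more in both TWEAK-treated libraries, a limit set after the values were seen. Of these, 8 lay within 500 bp of the start of a small nuclear or nucleolar RNA gene, and 0 of the other 230 sites did. They were 4 sites in CCDC200, each beside a copy of U2, and sites beside RNU1-2, RNU5D-1, RNVU1-22 and SNORD3B-2, whose products serve in splicing or ribosomal RNA processing. U2 and U1 are repeated genes, so reads there may be placed uncertainly. The site beside RNU1-2 had RNA Pol II at 396 and 325 in untreated cells, 659 and 317 with TWEAK, 382 and 364 in ETS1 KD cells and 336 and 171 in NFKB2 KD cells, against p52 at 6.18 and 5.36. ETS1 peaks were at 7 of these 8 sites and 0 of the other 14.

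The other 14 of the 22 sites lay in or near other genes. They included FOS, JUN and a pair at EGR1, which are immediate early genes, VIM, the noncoding RNA gene NEAT1, MIR21 and a pair in MIR23AHG, near ZSWIM4. Each pair shared the RNA Pol II peak of TWEAK-treated cells. At the site 3381 bp after the start of FOS, RNA Pol II was at 66.1 and 97.3 in untreated cells and 222 and 75.6 with TWEAK, and p52 was at 4.79 and 5. At the site past VIM, which encodes the filament protein vimentin, RNA Pol II was at 61.6 and 79.3 in untreated cells and 213 and 95.8 with TWEAK. Of the 22 sites, 21 were in all 6 RNA Pol II lists of untreated and KD cells, against 59 of the other 230. A κB match was at 7 of the 22 and at 157 of the 230, and p52 was in no ETS1 KD list at 7 of the 22 and at 17 of the 230. Stronger p52 was also present in this set, as at ARMH1 beside RNU5D-1 (20.6 and 39.3) and HOOK2 (19.2 and 40.8).

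Genes nearest to the sites were raised by TWEAK more often than genes at large. The 290 sites had 247 nearest protein-coding genes, 223 of them with 1 site, and 217 were expressed highly enough to be tested. In edgeR's quasi-likelihood test with an adjusted p under 0.05, TWEAK raised 21 of them (9.68%), against 1.55% of all 16879 genes, and lowered 2 (0.922%), against 1.53% of all genes. The median log2 fold change was 0.12, against 0.02 over all genes, and 149 of the 217 were above 0. The 252 sites, with 209 tested genes, gave the same counts of 21 and 2. The number raised fell to 9 without untreated replicate 1, 8 without untreated replicate 2, 13 without TWEAK replicate 2 and 9 without TWEAK replicate 3. Shares over all genes are not given for these fits, so fewer calls at large and a smaller excess cannot be told apart. Genes nearest to distal p52 sites without RNA Pol II were raised in 38 of 1155 cases (3.29%), or 32 of 1102 (2.90%) after genes that also had a site with RNA Pol II were left out. Promoter p52 sites were nearest to 35 raised of 530 genes (6.60%). The sites were chosen for RNA Pol II peaks in TWEAK-treated cells, and the distal comparison sites for their absence. The part of this choice in the shares of raised genes was not tested. RNA levels per cell and the number of cells cannot be told apart in bulk RNA-seq, and a nearest gene is not a shown target.

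**Figure D4:**
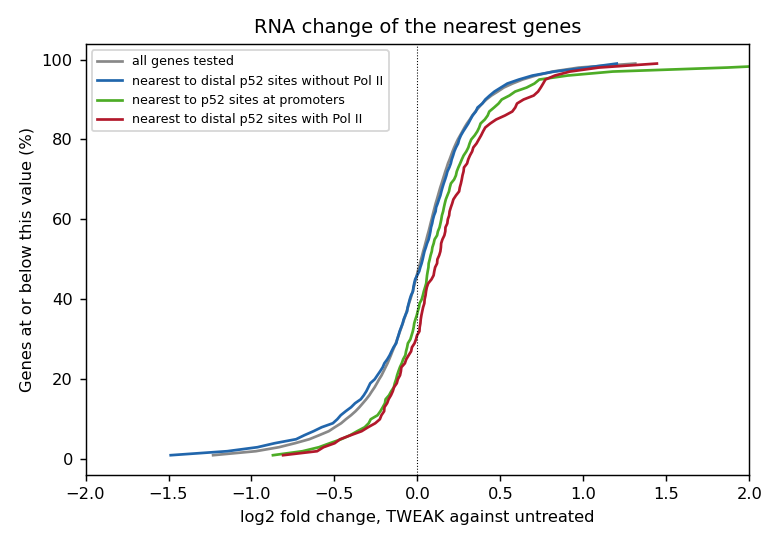
Cumulative share of genes (vertical axis, %) at or below a log2 fold change of TWEAK against untreated (horizontal axis, drawn from -2 to 2). The red line, genes nearest to distal p52 sites with RNA Pol II, lies to the right of all genes tested (grey) and of genes nearest to distal p52 sites without RNA Pol II (blue), with medians of 0.12, 0.02 and 0.03; green is genes nearest to promoter p52 sites, and genes of the red line are left out of the blue and green ones.

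Raised genes were found at short and long distances. Within 5 kb, 10 of 97 tested genes of the 252 sites were raised, from 5 to 20 kb 5 of 46, from 20 to 50 kb 2 of 34, from 50 to 100 kb 0 of 10, and beyond 100 kb 4 of 22. By RNA Pol II before TWEAK, 2 of 25 genes were raised where neither untreated list held the site, 7 of 66 where 1 did and 14 of 126 where both did. By κB match, 15 of 142 genes were raised at sites with a match and 7 of 71 at sites without. A gene with sites in several classes was counted in each, and these differences were not tested.

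TRAF1, IRAK2, TNIP1 and MAP3K5, which encode adaptors, kinases or regulators of immune and stress signalling, were each raised. TRAF1 was at 10.3, 11.03 and 13.6 CPM in untreated cells and at 64.2, 83.1 and 144 CPM with TWEAK, a log2 fold change of 3.06 ± 0.31 (SE; edgeR adjusted p = 0.000249, n = 3 and 3). The groups did not overlap. In NFKB2 KD cells TRAF1 was at 19.8, 19.2 and 29.9 CPM, below every TWEAK-treated control library (log2 fold change -2.08 ± 0.30, edgeR adjusted p = 0.0392), a call kept in 6 of 12 alternative fits and ended without TWEAK replicate 2 or 3 or any NFKB2 KD replicate, or with only the compared groups fitted (edgeR adjusted p up to 0.261). In ETS1 KD cells it was at 36.7, 55.7 and 65.3 CPM, which overlapped the control range (-0.89, edgeR adjusted p = 0.201). The site in an intron of TRAF1, at chr9:120926092-120926559, lay only 471 bp after a start. It had p52 at 8.21 and 14.8 in control cells, at 9.96 and 9.92 in guide 2 cells and in neither guide 1 list. RNA Pol II there was at 5.005 and 7.09 in untreated cells and at 22.9 and 18.0 with TWEAK.

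IRAK2, a kinase of interleukin-1 receptor signalling, rose from 23.9 to 24.9 CPM in untreated libraries to 35.7 to 47.4 CPM with TWEAK (log2 fold change 0.73, edgeR adjusted p = 0.00787), and its site lay 40499 bp into the gene. TNIP1, which binds the NF-κB inhibitor A20, rose by 0.60 (edgeR adjusted p = 0.0213), and its intron site had p52 at 17.4 and 35.0. MAP3K5, the stress kinase ASK1, rose by 0.76 (edgeR adjusted p = 0.00534). Its site had no κB match and p52 at 10.6 and 29.1. The calls of IRAK2 and TNIP1 ended without untreated replicate 1 or 2 or TWEAK replicate 3, and that of TNIP1 also without TWEAK replicate 2 or with only the compared groups fitted (edgeR adjusted p up to 0.053 and 0.135). BCL3, a nuclear IκB protein, had a site 1684 bp upstream with p52 at 16.5 and 43.9, yet its RNA was at 16.02, 16.01 and 34.5 CPM in untreated and 11.1, 27.3 and 29.0 CPM in TWEAK-treated cells, a log2 fold change of 0.02 ± 0.43 with overlapping groups.

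LIF, NRG1, VEGFC, PTGER4 and GPR176, which encode secreted factors or receptors, were each raised. LIF was at 47.5, 54.1 and 65.2 CPM in untreated cells and at 94.1, 115 and 148 CPM with TWEAK (log2 fold change 1.10 ± 0.20, edgeR adjusted p = 0.0104). ETS1 KD cells had 135, 157 and 190 CPM and NFKB2 KD cells 110, 85.6 and 127 CPM, and both overlapped the TWEAK-treated control libraries. NRG1, with sites at 319 bp and 113600 bp from a start, was at 36.6, 40.7 and 45.3 CPM and rose to 92.4, 104 and 148 CPM (1.49 ± 0.25, edgeR adjusted p = 0.00669). VEGFC, a growth factor for lymphatic vessels, rose by 0.66 (edgeR adjusted p = 0.0247). PTGER4 was at 8.06, 8.48 and 8.31 CPM in untreated and 13.5, 13.3 and 14.5 CPM in TWEAK-treated cells (0.73 ± 0.14, edgeR adjusted p = 0.0132). ETS1 KD cells had 10.4, 11.7 and 12.3 CPM and NFKB2 KD cells 7.44, 10.3 and 10.0 CPM of PTGER4, all below the control libraries with TWEAK, though neither comparison passed the test (edgeR adjusted p = 0.499 and 0.516). Leaving out untreated replicate 1 or 2 or TWEAK replicate 3 ended the calls of LIF, VEGFC and PTGER4, as did leaving out TWEAK replicate 2 for VEGFC and PTGER4 and fitting only the compared groups for VEGFC (edgeR adjusted p up to 0.0606, 0.151 and 0.0775). The orphan receptor gene GPR176 was at 43.5, 44.2 and 43.0 CPM and rose to 91.7, 88.3 and 96.7 CPM (1.08 ± 0.12, edgeR adjusted p = 0.000384).

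VIM, CD82 and PPIF were raised as well. VIM was at 9140, 9108 and 9088 CPM in untreated cells and at 16368, 15375 and 16286 CPM with TWEAK (log2 fold change 0.81 ± 0.10, edgeR adjusted p = 0.000995). CD82 was at 179, 190 and 219 CPM and rose to 330, 364 and 378 CPM (0.87 ± 0.15, edgeR adjusted p = 0.00767). PPIF was at 122, 117 and 115 CPM and rose to 222, 213 and 205 CPM (0.85 ± 0.16, edgeR adjusted p = 0.0108). In each of these the groups were separate, and none passed the test in either KD. The call of CD82 ended without untreated replicate 1 or 2 or TWEAK replicate 3 (edgeR adjusted p up to 0.0631).

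RRAD, a small GTPase gene, was at 92.3, 98.0 and 111 CPM in untreated and 239, 235 and 214 CPM in TWEAK-treated cells (1.19 ± 0.12, edgeR adjusted p = 0.000193). At the site upstream of RRAD, RNA Pol II was at 161 in TWEAK replicate 1 but at 5.42 in replicate 2, against 9.42 and 3.91 in untreated cells. ZSWIM4, near the MIR23AHG sites, rose by 1.69 ± 0.25 (edgeR adjusted p = 0.00309). MYC, the transcription factor gene, rose by 0.71 (edgeR adjusted p = 0.0287), and its sites, 114010 and 210955 bp away in PVT1, had p52 at 11.8 and 24.7 and at 25.5 and 54.7. The other raised genes were IQCG, LPXN, TBC1D10A, RNF19B, DUSP10 and EIF5A, with log2 fold changes from 0.39 to 0.70. The call of each of these and of MYC ended without at least 1 library, untreated replicate 2 in every case, with edgeR adjusted p up to 0.271 (EIF5A). Those of TBC1D10A, RNF19B, DUSP10 and EIF5A also ended with only the compared groups fitted or with no filter on low counts.

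**Figure D5:**
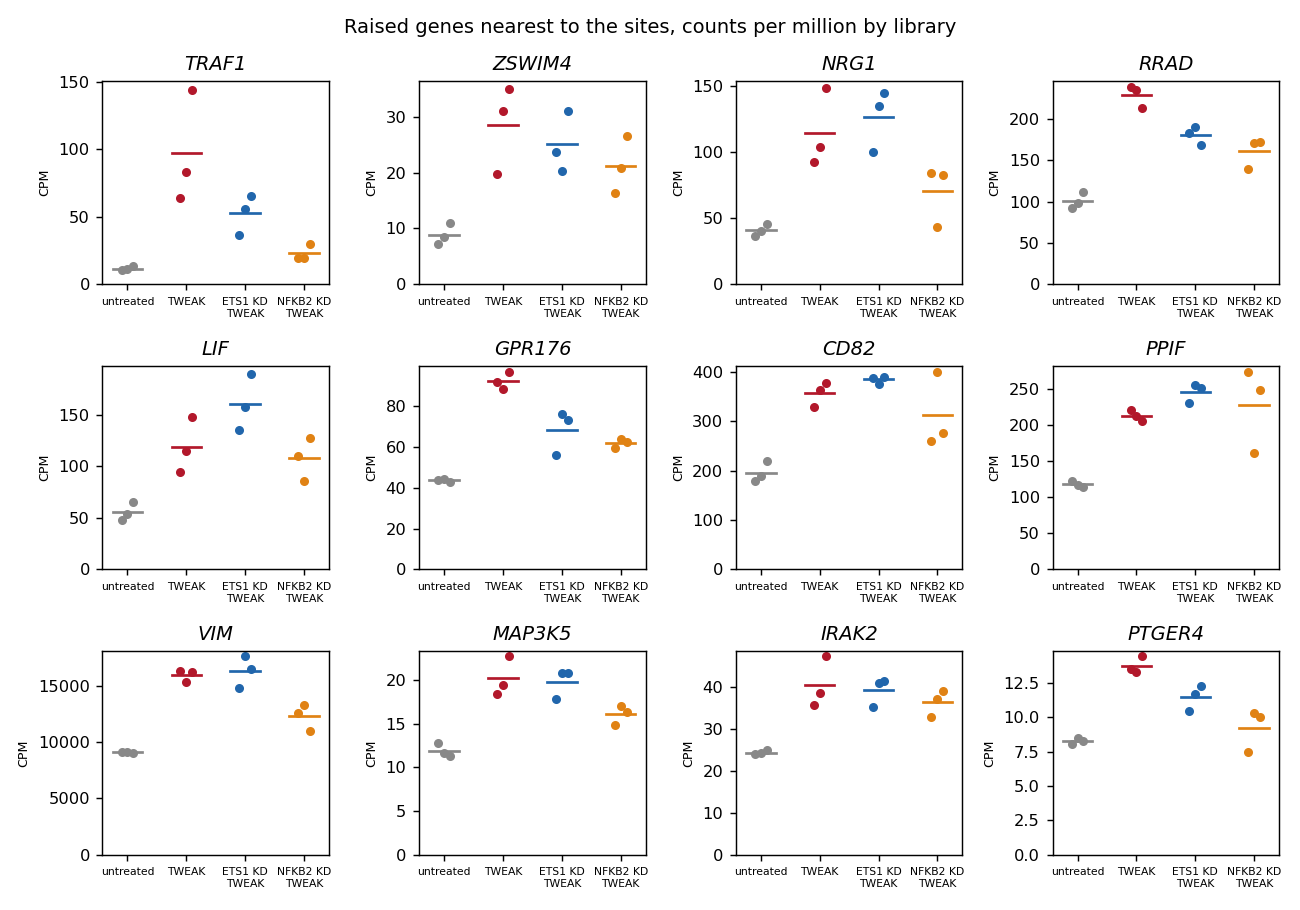
CPM (vertical axes, each from 0) of the 12 nearest genes with the highest log2 fold change among those raised by TWEAK, with a point for each of the 3 libraries in a group and a line at their mean. Groups are untreated control, TWEAK-treated control, TWEAK-treated ETS1 KD and TWEAK-treated NFKB2 KD cells; every TWEAK-treated control library lies above every untreated one, as for TRAF1 at 64.2 or more against 13.6 or less.

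Only PADI1 and RAB31 were lowered by TWEAK. PADI1 had at most 27 counts in any library (log2 fold change -2.50 ± 0.54, edgeR adjusted p = 0.0257). RAB31, a Rab GTPase gene, was at 239, 236 and 215 CPM and fell to 165, 148 and 150 CPM (-0.58 ± 0.10, edgeR adjusted p = 0.00718). RNA Pol II at its intron site was at 15.8 and 11.1 with TWEAK and in no untreated list. The call of PADI1 ended without any 1 library other than TWEAK replicate 1, and that of RAB31 without untreated or TWEAK replicate 2 (edgeR adjusted p up to 0.135 and 0.0535).

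KD calls were few among the nearest genes and among all genes tested. Over all 16879 genes, NFKB2 KD raised 1 and lowered 4. The ETS1 KD and NFKB2 KD comparisons share the TWEAK-treated control libraries. ETS1 KD raised 2 of 217 (0.922%), against 0.255% of all genes, and lowered 3 (1.38%), against 1.13% of all genes. NFKB2 KD raised 0 in edgeR, against 0.00592% of all genes, and lowered 1 (0.461%), against 0.0237% of all genes. At an unadjusted edgeR p under 0.05, 4 of the 217 were higher and 11 lower, against 345 and 315 of all 16879 genes. HAS1, a hyaluronan synthase gene, was at 44.9, 48.8 and 52.1 CPM in TWEAK-treated control cells and 84.9, 85.9 and 92.8 CPM in ETS1 KD cells (log2 fold change 0.85 ± 0.13, edgeR adjusted p = 0.00461). EMP1, a membrane protein gene, rose from 490, 448 and 494 CPM to 681, 829 and 799 CPM (0.69 ± 0.11, edgeR adjusted p = 0.00738). IL36B, an interleukin-1 family cytokine gene, was at 356, 334 and 322 CPM and fell to 100, 112 and 89.3 CPM (-1.75 ± 0.16, edgeR adjusted p = 0.000157), and its site had p52 in no ETS1 KD list. DUSP10, a MAP kinase phosphatase gene, was at 22.3, 22.03 and 22.8 CPM and fell to 13.2, 13.9 and 13.3 CPM (-0.74 ± 0.11, edgeR adjusted p = 0.00421). RNA Pol II at the site 271680 bp from DUSP10 was at 7.36 and 2.73 in TWEAK-treated control cells and in no KD list, while p52 there was at 29.99, 58.3, 47.4 and 50.2 in ETS1 KD cells. KLHDC7B was the other gene lowered, from at most 127 counts (-3.46, edgeR adjusted p = 0.0344). The calls of EMP1 and KLHDC7B ended without TWEAK replicate 2 or ETS1 KD replicate 2 or 3, and that of KLHDC7B also without TWEAK replicate 3 or ETS1 KD replicate 1 (edgeR adjusted p up to 0.0671 and 0.184).

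Pathway lists were read for genes nearest to a site, which 217 of all 16879 tested genes were. Of 25 genes of the NF-κB pathway and its feedback, all tested, TWEAK raised 14, and 3 (BCL3, TNIP1 and TRAF1) were nearest to a site. Of 19 tested chemokine and cytokine genes it raised 10, and LIF alone was nearest to a site. Of 12 tested AP-1 genes it raised 2, and FOS and JUN, which had sites, were not among them (0.17 and -0.05 on the log2 scale). Of 22 tested genes of adhesion, matrix and invasion it raised 6, of which VIM had a site, while CD44, a hyaluronan receptor gene, had a site and a log2 fold change of 0.59 (edgeR adjusted p = 0.108) and ITGA3 one of -0.15. Of 12 genes of survival and stress it raised 2, and GADD45B, with sites at 477 and 2943 bp, was at 0.26. Of 7 genes of RNA Pol II pausing and elongation it raised MYC.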

How the data were processed

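U-87 MG cells were profiled by ChIP-seq (20 libraries with a peak list) and RNA-seq (12 libraries). For ChIP-seq the authors used Trimmomatic for adaptors, Bowtie2 for mapping to hg38 and MACS2 for peaks against input, and took out blacklisted regions. The deposited lists, 1 per library and not pooled, give the fold enrichment ratio and −log10 p- and q-values at each summit. For RNA-seq the authors mapped reads with STAR and deposited whole-number gene counts from featureCounts, with totals of 28384201 to 40192606 per library. The strand setting and annotation release are not given in the sources used here. The authors describe the RNA-seq replicates as biological. Untreated replicates 1 and 2 were the most alike pair within a group, with a chi-square of their counts of 6.86 per degree of freedom. Other pairs within a group ranged from 15.0 to 88.8, and the reason was not tested. Nothing says that ChIP-seq replicates came from separate cultures, so p-values over them measure the spread between these samples, which may be technical. The 3 input samples were not analysed here.

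Peaks were intersected in Python 3.11.15 with numpy 2.4.6, and genes and starts were taken from GENCODE release 44. A site was assigned to the protein-coding gene with the nearest start. Motifs (8 searched, κB by name, on both strands) were read within 100 bp of the strongest p52 summit of a site. The fold enrichment was used to describe and rank sites within a list. Shares have exact (Clopper-Pearson) 95% intervals and differences Newcombe intervals, which cover counting error only, and a count of 0 was given the limit of 3 counts. Shares per library were compared by exact permutation. RNA counts were tested with edgeR 4.0.16 in R 4.3.3 (TMM, filterByExpr, 16879 genes, quasi-likelihood test over 4 groups, Benjamini-Hochberg adjustment over all genes). DESeq2 1.42.0 was an alternative, as were other windows, overlaps, thresholds and left-out libraries. Code was tested on simulated data.

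Sites and gene lists were chosen with earlier results of these data known. Named sites are the 12 with the highest lower p52 fold enrichment and those nearest to listed genes. Named genes are the 12 raised and 8 lowered nearest genes with the largest change, 6 each way per KD, those with most sites, and listed genes. Others were named after their values were seen, as were the sites listed by every antibody.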

Additional observations from a re-analysis of the deposited data

Results flagged for a closer look

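Over all 290 sites, 14 (4.83%) had p52 in neither ETS1 KD guide 1 library and in both guide 2 libraries, and 1 had the reverse. Of the 1776 distal sites without RNA Pol II that were not listed by every antibody, 76 (4.28%) had this pattern and 1 the reverse. They drew attention because both libraries of guide 1 lacked a peak where both libraries of guide 2 held one. The difference between guides was not tested. The sites include those near TRAF1, DUSP5, ERCC1, NIBAN1 and CD59. At the DUSP5 site, 26457 bp from its start, p52 was at 10.6 and 13.8 in the guide 2 libraries. The guide 1 lists held 1387 and 3897 peaks and the guide 2 lists 4252 and 3938, and the part of list length in this pattern was not tested.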

How the results depend on the processing

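Site counts follow the lists that make them. Leaving out 1 library gave 295 to 843 sites, with 843 without p52 TWEAK replicate 1 and 443 without RNA Pol II TWEAK replicate 2. A promoter window of 2000 bp upstream to 500 bp downstream left 212 sites. That window covers the sites 220 bp after a start of PLA2G6 and 471 bp after a start of TRAF1. With peaks of −log10 q of at least 5 there were 154 sites, with p52 in both untreated lists at 7.14%, both guide 1 lists at 52.6% and both guide 2 lists at 82.5%, ETS1 in both TWEAK or both untreated lists at 11.7% each, and RNA Pol II in both untreated lists at 72.7% and both ETS1 KD lists at 80.5%. Where RNA Pol II had to cover at least 50% of the site there were 191 sites, with RNA Pol II in both lists at 74.9% (untreated), 82.2% (ETS1 KD) and 53.4% (NFKB2 KD). With lists cut to the length of the shortest, p52 was in both untreated lists at 12.1%, both guide 1 lists at 11.7% and both guide 2 lists at 13.45%. RNA Pol II was then in both lists at 39.3% (untreated), 47.6% (ETS1 KD) and 33.8% (NFKB2 KD). Taking a peak in either library gave 79.7% and 83.8% for p52 and 87.9%, 81.7% and 84.5% for RNA Pol II. Without the sites listed by every antibody, an alternative chosen after seeing the data, p52 was in both untreated lists at 0%, κB matches were at 65.1%, and ETS1 was in both TWEAK lists at 3.97% and both untreated lists at 3.17%. Over all 290, κB matches were at 63.5% of whole sites, and AP-1 matches at 10%, 22.8% and 28.6% in 100 bp, 400 bp and whole-site windows. Leaving out 1 library moved p52 in both untreated lists between 4.15% and 15.6%, in both guide 1 lists between 14.7% and 79.3% and in both guide 2 lists between 31.1% and 77.6%. It moved ETS1 between 9.02% and 19.7% (TWEAK) and between 7.95% and 20% (untreated), and RNA Pol II between 42.9% and 78.3% (untreated), 45.6% and 76.9% (ETS1 KD) and 29.4% and 83.1% (NFKB2 KD).

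TWEAK raised 8 to 21 nearest genes and lowered 0 to 2 with 1 library left out, ETS1 KD raised 1 to 2 and lowered 2 to 3, and NFKB2 KD lowered 0 to 1. Lowered by TWEAK were 5 genes with DESeq2, 8 with no filter on low counts, 4 with only the compared groups and 1 with genes of any biotype. ETS1 KD raised 5 with no filter and 4 with an unadjusted p up to 0.05 and a 1.5-fold change or more, and lowered 5 (DESeq2), 7 (no filter), 6 (unadjusted) and 1 (any biotype). NFKB2 KD raised 1 with no filter and 1 unadjusted, and lowered 3 (DESeq2), 2 (no filter), 2 (unadjusted) and 0 (only the compared groups). Shares over all genes are not given for these alternatives, so their counts have no background beside them. Deviations of libraries with the same replicate number correlated from -0.30 to 0.49 (Pearson's r across genes). Pairs of replicate 3 were all positive, from 0.07 to 0.49, while those of replicates 1 and 2 went both ways. Libraries with different numbers also deviated together, as did ETS1 KD replicate 2 and TWEAK replicate 1 (0.488), or apart, down to -0.56. The main fit had no replicate block, and a replicate block lowered 4 genes with TWEAK. Across 17 results, 140 alternative values stayed close to the main value and 83 moved, and the cause was not tested. A share was close if inside the exact interval of the main share, and a count if within 1.5-fold of the main count. Direction and call were not part of this rule. Peak lists hold no depth, so an absent peak cannot be set against a limit of detection.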
